A study of Mus musculus with 6 samples.

Results

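The genes described here are the Wnt ligands, the proteins that export them, their receptors and the core mediators of the signal. Members were chosen by gene name alone, as the Wnt ligands, Frizzled receptors, R-spondins, *Lgr4* to *Lgr6*, *Lrp4* to *Lrp6*, *Axin1*, *Axin2*, *Lef1*, *Tcf7*, *Ctnnb1*, *Porcn*, *Wls*, *Znrf3* and *Rnf43*. The deposited tables hold 42 of the 48 names, out of 48733 named genes in all. The other 6 names (*Wnt10b*, *Fzd7*, *Rspo2*, *Lgr6*, *Lrp4* and *Tcf7*) have no named feature, and the unnamed features at their positions are described after the members.

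RNA was sequenced from the femora and from marrow-derived osteoblasts of the Collaborative Cross strain CC016/GeniUnc. Every library is of this inbred strain, and the labels name no engineered allele. The group labelled bone (n = 3 libraries) is given as the cortex of the femur with its marrow taken out. The group labelled osteoblasts (n = 3 libraries) is given as marrow stromal cells kept for 8 days in medium with dexamethasone (10 nM), ascorbic acid (50 µg/ml) and beta-glycerophosphate (10 mM), a mixture that drives stromal cells to form osteoblasts. Such cultures start from adherent marrow cells, which include macrophages as well as stromal cells. Neither the age nor the sex of the mice is given in the sources used here. The methods name 3 mice, but nothing says which libraries came from one animal, so the p-values below measure only the spread between these libraries.

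Wnt proteins are secreted lipid-modified ligands. PORCN adds the lipid and WLS carries the ligand to the cell surface, where it binds a Frizzled receptor together with the coreceptor LRP5 or LRP6. The signal stops the AXIN scaffold from sending beta-catenin (*Ctnnb1*) to degradation, and beta-catenin then works with the DNA-binding factors LEF1 and TCF7. R-spondins, bound by LGR receptors, keep Frizzled on the membrane by removing the ubiquitin ligases ZNRF3 and RNF43. In the skeleton the pathway is known for driving bone formation. Loss of LRP5 lowers bone mass, and the osteocyte product sclerostin (*Sost*) blocks LRP5 and LRP6.

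The libraries did not part by label. FPKM count sequenced fragments, scaled to the length of the transcript and to all aligned fragments of the library. *Hbb-bt*, a beta-globin gene of red cells, passed 1000 FPKM in one bone library (replicate 3) and in osteoblasts replicates 2 and 3, with levels of 34268 to 48650. The remaining libraries, osteoblasts replicate 1 and bone replicates 1 and 2, had 3.43 to 7.05 FPKM. The first 3 libraries are called *Hbb-bt*-high below and the other 3 *Hbb-bt*-low, which describes a measured level and assigns no sample to another group. The marker levels that follow go against the labels of some libraries, since one label holds libraries with and without blood, marrow and muscle genes. Whether labels were exchanged or tissues were mixed was not tested, so every difference between bone and osteoblasts below is one between libraries so labelled. Of 5 erythroid and 6 neutrophil marker genes, all 11 were higher in each *Hbb-bt*-high library than in any *Hbb-bt*-low one. Among all 12112 genes with a mean of at least 1 FPKM, 38.4% were. The 6 neutrophil genes summed to 11945 to 14697 FPKM in the *Hbb-bt*-high libraries and to 0.430 to 5.28 FPKM in the others, with *Elane* at 0 in all 3 of the latter. The 3 muscle genes summed to 221 to 943 FPKM against 0.0324 to 1.09 FPKM. The 5 macrophage genes went the other way, with 303 to 394 FPKM in the *Hbb-bt*-high libraries and 1037 to 2035 FPKM in the *Hbb-bt*-low ones. Osteoblast markers were present in every library. *Col1a1* measured 1499 to 3332 FPKM and overlapped between *Hbb-bt*-high and *Hbb-bt*-low libraries. *Ibsp* measured 43.1 to 1278 FPKM, with its lowest values in the *Hbb-bt*-high libraries. Depth, read from the ratio of coverage to FPKM, came to 13566700 to 22586700 aligned read pairs per library, so that for a transcript of 1 kb, 3 read pairs come to 0.133 to 0.221 FPKM. Values listed for bone or osteoblasts are in the order of replicates 1, 2 and 3. Features without a name took 71.5% of the FPKM in bone replicate 2 and 65.0% in osteoblasts replicate 1, against 27.4 to 30.7% in the other 4. Unnamed features at a single chromosome position held 156149 and 144377 FPKM in these 2 libraries and 233 to 367 FPKM in the other 4. Because FPKM are scaled to all aligned fragments, fragments at such a position lower the FPKM of every other gene in that library. In these bulk samples, fewer cells of a type and less RNA per cell cannot be told apart.

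The first question was whether the pathway differed between the samples labelled bone and osteoblasts. No member passed the test, and libraries of one label lay far apart. Of the 42 members, 22 had a mean of at least 1 FPKM over the 6 libraries and were tested with limma on log2(FPKM + 1), and 0 passed a Benjamini-Hochberg adjusted p of 0.05 in either direction. Across all 12112 genes limma also called 0% higher and 0% lower, and the share with an unadjusted p under 0.05 was 0.140% (17 genes). None of the 22 members reached an unadjusted p of 0.05, and the lowest was 0.257 for *Fzd1* (limma). The median difference over the 22 members was -0.09 on the log2 scale, beside 0.12 over all genes tested. Of the differences, 9 were above 0 and 13 below. The ranges of the 2 labels overlapped for all 37 members above 0 in some library. Among all genes above 0 in some library, 0.867% had every osteoblasts library above every bone library and 0.805% the reverse. These shares were 0.549% and 0.501% among genes with 1 FPKM in some library, and 0.479% and 0.438% among those tested. With the *Hbb-bt* level (above 1000 FPKM or not) as a second term, limma called 0.0661% of genes higher and 0.0661% lower in osteoblasts, and again 0 members.

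The leading member of each role, that with the highest mean level, shows the size of these errors. On GRCm38 their deposited features are *Wnt5b* (Chr. 6, 119432531 to 119544347), *Wls* (Chr. 3, 159839672 to 159938664), *Fzd1* (Chr. 5, 4753839 to 4758035), *Lrp5* (Chr. 19, 3584828 to 3686564), *Rspo3* (Chr. 10, 29452416 to 29535867), *Lgr4* (Chr. 2, 109917647 to 110014257), *Znrf3* (Chr. 11, 5276324 to 5444847), *Ctnnb1* (Chr. 9, 120929216 to 120960507) and *Lef1* (Chr. 3, 131110471 to 131224356). For *Fzd1* the difference, osteoblasts minus bone, was -1.20 (standard error 0.99, limma adjusted p = 0.999). For *Wls* it was -0.79 (standard error 0.83, limma adjusted p = 0.999), and for *Lef1* 0.61 (standard error 0.76, limma adjusted p = 0.999). *Rspo3* differed by -0.39 (standard error 0.75), *Lrp5* by 0.16 (standard error 0.49) and *Wnt5b* by -0.05 (standard error 0.50). *Lgr4*, *Ctnnb1* and *Znrf3* differed by 0.04, 0.04 and 0.01, with standard errors of 0.44, 0.54 and 0.41. Each of these 6 had a limma adjusted p of 0.999. Counts over all genes depended on single libraries. Without osteoblasts replicate 1 limma called 262 genes higher and 38 lower, and without bone replicate 3 it called 66 higher and 11 lower, with 0 members among them in both cases. The lowest adjusted p of a member was then 0.0953 and 0.111, for *Fzd1* in both (limma). Members at an unadjusted p under 0.05 (limma) numbered 3 and 2, beside 1525 and 1433 of all 12112 genes. Without osteoblasts replicate 1 the osteoblasts libraries left were all *Hbb-bt*-high. Without bone replicate 3 the bone libraries left were all *Hbb-bt*-low. In these fits label and *Hbb-bt* level largely coincide and cannot be told apart. The difference of *Fzd1* was -2.22 without bone replicate 3 and -0.46 without bone replicate 1. That of *Lef1* was 1.305 without osteoblasts replicate 1 and 0.096 without osteoblasts replicate 3. With the *Hbb-bt* level as a second term *Fzd1* differed by -0.25 and *Wls* by -0.046.

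**Figure D1:**
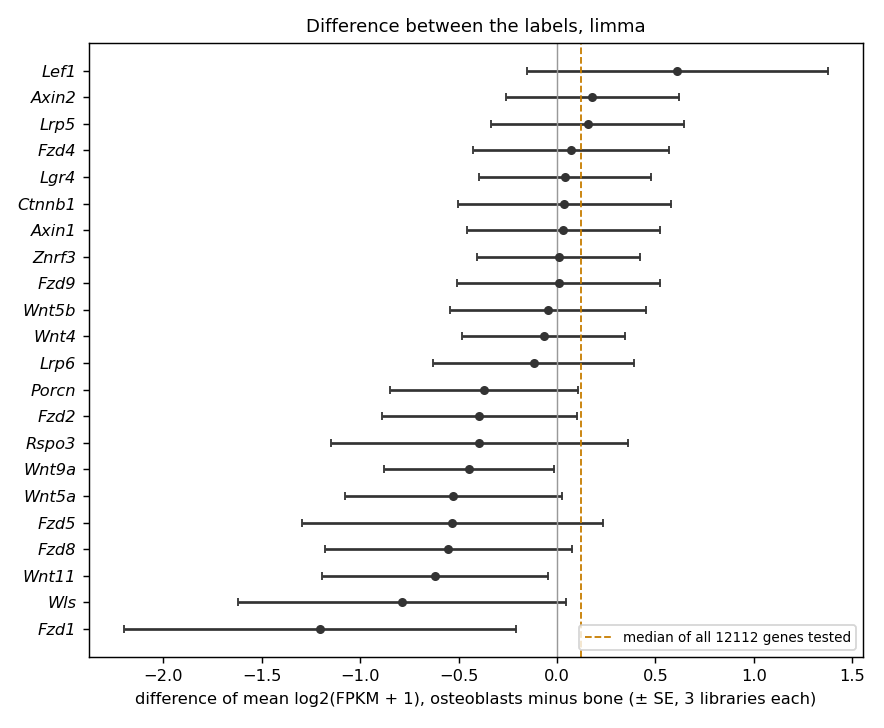
Difference of mean log2(FPKM + 1), osteoblasts minus bone, for the 22 members tested, with standard errors from limma (3 libraries per label); the dashed line is the median of the 12112 genes. The estimates run from -1.20 for *Fzd1* to 0.61 for *Lef1*, and 0 members passed the adjusted threshold.

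Set beside the level of *Hbb-bt*, the members fell into separate patterns. Of the 24 members with at least 1 FPKM in some library, 10 were lower in each *Hbb-bt*-high library than in any *Hbb-bt*-low one, 5 were higher in each, and 9 overlapped. Over all 14759 genes that reached 1 FPKM in some library, 15.2% were lower and 41.1% higher in this sense. Over the 37 members above 0 in some library the counts were 12 lower, 10 higher and 15 overlapping, beside 9.32% lower and 32.4% higher among the 27562 genes above 0 in some library. No test was run on this split, since it rests on measured values and not on a label. Erythroid, neutrophil, muscle and macrophage markers moved with it. Stromal and osteoblast markers did so only in part, with sums that were lower in the *Hbb-bt*-high libraries, as the 10 lower members were. The 4 stromal genes summed to 44.3 to 49.7 FPKM in the *Hbb-bt*-high libraries and to 196 to 373 FPKM in the others. Of the 4, 2 (*Postn* and *Pdgfrb*) were lower in each, while *Lepr* and *Thy1* overlapped. The 5 osteoblast genes summed to 1676 to 2404 FPKM and to 2769 to 4530 FPKM. Of the 5, 2 (*Ibsp* and *Alpl*) were lower in each, while *Col1a1*, *Sp7* and *Runx2* overlapped. No gene of either list was higher in each, beside 16.9% lower and 38.4% higher among all genes tested. The part of these cell types in the values was not tested. Rescaling each library to its sum of named genes or to its 75th percentile kept the 10 lower members lower and 4 of the 5 higher members higher. The exception was *Wnt5b*, which overlapped when scaled to the sum of named genes. Among the 22 tested, 10 were lower and 3 higher on the FPKM scale, beside 16.9% and 38.4% of all genes tested. Scaled to named genes the counts were 15 and 2, beside 48.6% and 21.4%, and scaled to the 75th percentile 11 and 4, beside 20.4% and 47.0%. *Fzd4*, *Lgr4*, *Wnt4* and *Znrf3*, which overlapped on the FPKM scale, were lower when scaled to named genes.

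**Figure D2:**
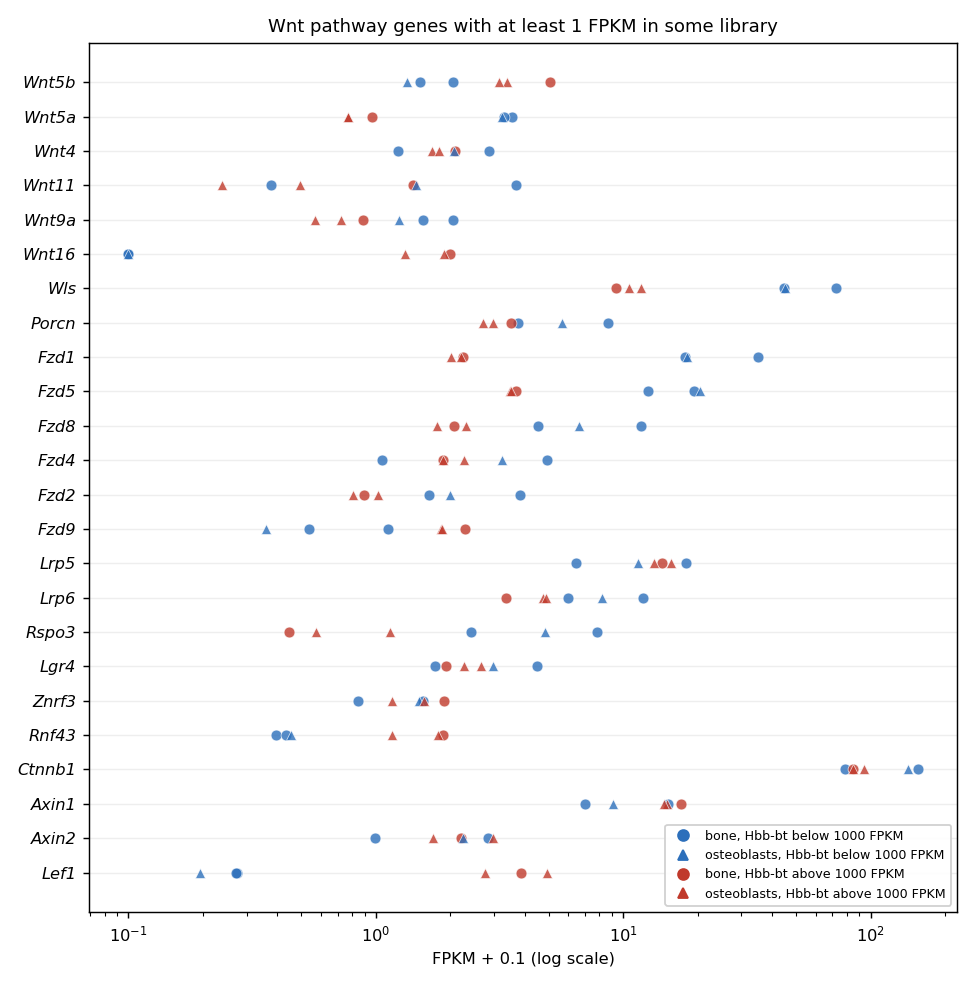
FPKM + 0.1 (log scale) of the 24 members with at least 1 FPKM in some library, 1 point per library; circles are bone, triangles osteoblasts, red points have *Hbb-bt* above 1000 FPKM and blue points below. For *Wls*, *Fzd1* and *Fzd5* the 3 blue points all lie to the right of the 3 red ones, and for *Lef1* and *Wnt16* all to the left, while circles and triangles overlap in every row.

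Ligands were low. Of 18 named Wnt genes, 6 reached 1 FPKM in some library and 5 (*Wnt3a*, *Wnt7a*, *Wnt8a*, *Wnt8b* and *Wnt9b*) were listed at 0 in all 6. All 18 together summed to 8.12 to 15.5 FPKM per library, less than *Axin1* alone in 3 of the 6. *Wnt5a*, a ligand known mainly for signals that do not use beta-catenin, measured 3.44, 3.19 and 0.864 FPKM in bone and 3.15, 0.673 and 0.669 FPKM in osteoblasts. Its levels in the *Hbb-bt*-low libraries all lay above 3 FPKM and those in the *Hbb-bt*-high ones all below 1. Its close relative *Wnt5b* measured 1.95, 1.41 and 4.98 FPKM in bone and 1.23, 3.28 and 3.06 FPKM in osteoblasts, with the *Hbb-bt*-high libraries above the others. The *Wnt5b* feature also spans *Fbxl14* in RefSeq, and how reads were split between them is not known, which holds as well for *Wnt2b* and *St7l*. *Wnt16*, a ligand of cortical bone known to restrain bone resorption, was listed at 0 in all 3 *Hbb-bt*-low libraries, with 0, 0 and 1.90 FPKM in bone and 0, 1.21 and 1.78 FPKM in osteoblasts. It missed the filter on mean level and was not tested.

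*Wnt9a*, a ligand of developing joints, measured 1.94, 1.45 and 0.784 FPKM in bone and 1.14, 0.467 and 0.621 FPKM in osteoblasts, without overlap by *Hbb-bt* level. *Wnt4*, a ligand active in kidney and gonad formation, measured 2.77, 1.13 and 1.99 FPKM in bone and 1.97, 1.59 and 1.702 FPKM in osteoblasts. *Wnt11* measured 3.60, 0.278 and 1.31 FPKM in bone and 1.35, 0.392 and 0.138 FPKM in osteoblasts. *Wnt11* split neither by label nor by *Hbb-bt* level under any of the 3 scalings, and *Wnt4* split by *Hbb-bt* level only when scaled to named genes. The 7 ligands above 0 that stayed under 1 FPKM were *Wnt2b* (at most 0.807 FPKM), *Wnt7b* (0.576), *Wnt6* (0.387), *Wnt1* (0.286), *Wnt2* (0.215), *Wnt10a* (0.196) and *Wnt3* (0.0783). *Wnt2* peaked in bone replicate 1, where 3 read pairs on 1 kb give 0.181 FPKM, and *Wnt10a* and *Wnt3* in bone replicate 3, where they give 0.179 FPKM. *Wnt1* was at 0 in the 3 *Hbb-bt*-low libraries. As a share of the summed Wnt FPKM, *Wnt5b* was the leading ligand in the *Hbb-bt*-high libraries (33.4 to 37.6%). *Wnt5a* led in bone replicate 2 (39.2%) and osteoblasts replicate 1 (34.2%), and *Wnt11* in bone replicate 1 (23.2%).

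The export gene *Wls* was above every ligand in each library. It measured 72.7, 44.7 and 9.22 FPKM in bone and 45.2, 10.5 and 11.7 FPKM in osteoblasts. Its level exceeded that of 93.6 to 95.1% of the genes with at least 1 FPKM in the *Hbb-bt*-low libraries and of 63.3 to 68.3% in the *Hbb-bt*-high ones. *Porcn*, the acyltransferase, measured 8.62, 3.66 and 3.42 FPKM in bone and 5.56, 2.62 and 2.88 FPKM in osteoblasts. It had the same order of libraries, but bone replicates 2 and 3 were nearly level.

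Frizzled receptors differed in make-up as well as in amount. The 9 named genes summed to 76.2, 37.9 and 13.8 FPKM in bone and to 50.5, 13.0 and 13.0 FPKM in osteoblasts. *Fzd1* measured 35.1, 17.6 and 2.14 FPKM in bone and 18.1, 1.90 and 2.11 FPKM in osteoblasts. *Fzd5* measured 19.2, 12.5 and 3.58 FPKM in bone and 20.3, 3.39 and 3.42 FPKM in osteoblasts. In both, every *Hbb-bt*-low library was above 12 FPKM and every *Hbb-bt*-high one below 4. *Fzd8* followed at 11.7, 4.41 and 1.96 FPKM in bone and 6.53, 2.22 and 1.66 FPKM in osteoblasts, and *Fzd2* at 3.72, 1.54 and 0.797 FPKM in bone and 1.89, 0.925 and 0.705 FPKM in osteoblasts.

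*Fzd9*, a receptor needed for normal bone formation in mice, had the opposite order, with 1.02, 0.435 and 2.20 FPKM in bone and 0.258, 1.73 and 1.75 FPKM in osteoblasts. *Fzd6* and *Fzd10* shared that order at lower levels, at most 0.725 and 0.399 FPKM. *Fzd4*, also the receptor of the vascular ligand norrin, measured 4.80, 0.958 and 1.77 FPKM in bone and 3.13, 1.77 and 2.18 FPKM in osteoblasts and overlapped. Its feature also reaches into *Tmem135* in RefSeq. The 5 endothelial markers summed to 33.5 to 47.1 FPKM in the *Hbb-bt*-high libraries and to 0.273 to 5.04 FPKM in the others, and their part in the level of *Fzd4* was not tested. *Fzd3* stayed at or below 0.494 FPKM.

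Shares within the family do not depend on how a library is scaled. *Fzd1* made up 46.0%, 46.4% and 15.5% of the named Frizzled FPKM in bone and 35.8%, 14.6% and 16.2% in osteoblasts. *Fzd9* made up 1.34%, 1.15% and 16.0% in bone and 0.511%, 13.3% and 13.5% in osteoblasts. *Fzd4* ranged from 2.53 to 6.30% in the *Hbb-bt*-low libraries and from 12.8 to 16.7% in the *Hbb-bt*-high ones. The share of *Fzd8* was alike, at 11.6 to 15.3% and 12.8 to 17.1%. *Fzd5* was at 25.9 to 26.3% in the *Hbb-bt*-high libraries and 25.2 to 40.2% in the others, with bone replicate 1 the lowest of all 6. Between the labels the log2 share of *Fzd1* differed by -0.65, with an SD of 0.91 in bone and 0.70 in osteoblasts (exact permutation test, two-sided, p = 0.3, and 0.9 after Benjamini-Hochberg adjustment over 3 ratios). Without bone replicate 3 the difference was -1.18, without osteoblasts replicate 1 -1.06, and without bone replicate 2 -0.39. With 3 libraries on each side, 0.1 is the smallest p such a test allows.

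**Figure D3:**
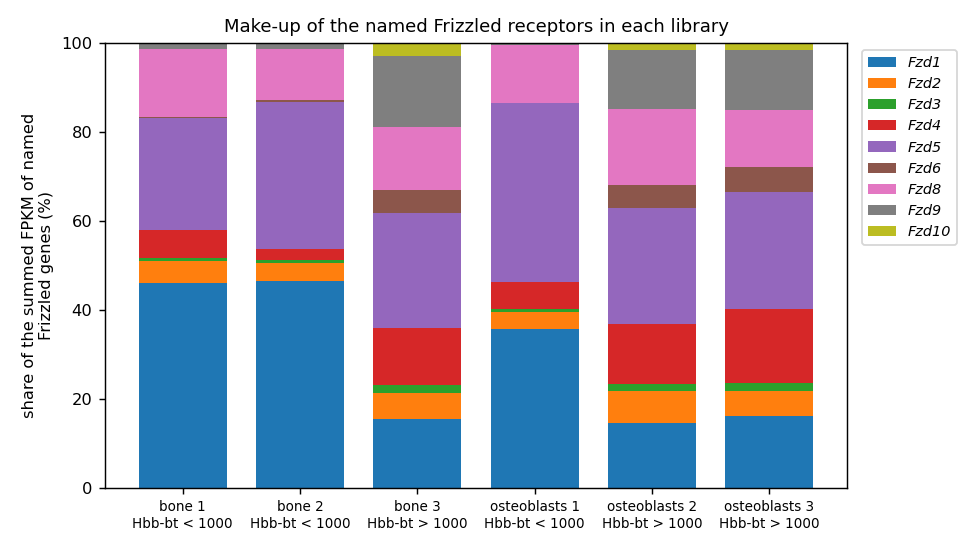
Share of the summed FPKM of the 9 named Frizzled genes taken by each gene, in percent, 1 bar per library, with the *Hbb-bt* level under each bar. *Fzd1* takes 35.8 to 46.4% in the 3 libraries with *Hbb-bt* below 1000 FPKM and 14.6 to 16.2% in the others, where *Fzd9* takes 13.3 to 16.0%.

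Among the coreceptors, *Lrp5* and *Lrp6* did not move together. *Lrp5* measured 17.8, 6.32 and 14.2 FPKM in bone and 11.3, 13.2 and 15.5 FPKM in osteoblasts, with no split by *Hbb-bt* level. *Lrp6* measured 11.9, 5.89 and 3.26 FPKM in bone and 8.14, 4.64 and 4.76 FPKM in osteoblasts, and its 3 *Hbb-bt*-low values were the 3 highest. The ratio of *Lrp6* to *Lrp5* was 0.670, 0.932 and 0.230 in bone and 0.718, 0.351 and 0.308 in osteoblasts. *Lrp5* therefore exceeded *Lrp6* in every library, by most where *Hbb-bt* was high. Between the labels the log2 ratio differed by -0.30, with an SD of 1.06 in bone and 0.66 in osteoblasts (exact permutation test, two-sided, p = 0.9, and 0.9 after adjustment over 3 ratios). Without bone replicate 2 this difference was 0.12, in the other direction.

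Of the named R-spondins *Rspo3* had the highest mean, though *Rspo4* was above it in bone replicate 3 and osteoblasts replicate 2. *Rspo3* is a ligand of LGR4 that marrow stroma and endothelium can make. It measured 7.70, 2.33 and 0.346 FPKM in bone and 4.72, 0.471 and 1.04 FPKM in osteoblasts, and the *Hbb-bt*-low libraries held the 3 highest values. *Rspo4* was the reverse at a low level, at 0, 0 and 0.918 FPKM in bone and 0.0315, 0.513 and 0.477 FPKM in osteoblasts, and *Rspo1* did not exceed 0.179 FPKM. *Lgr4*, the only R-spondin receptor above 1 FPKM among the named genes, measured 4.40, 1.64 and 1.82 FPKM in bone and 2.89, 2.18 and 2.55 FPKM in osteoblasts. *Lgr5*, a stem cell marker in the gut, stayed at or below 0.339 FPKM. The ratio of *Rspo3* to *Lgr4* was 1.42 to 1.75 in the *Hbb-bt*-low libraries and 0.190 to 0.408 in the others. This ratio was chosen after the levels had been seen and was not tested.

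Of the receptor-removing ubiquitin ligases, *Znrf3* measured 1.44, 0.751 and 1.79 FPKM in bone and 1.40, 1.46 and 1.06 FPKM in osteoblasts. *Rnf43* measured 0.296, 0.335 and 1.77 FPKM in bone and 0.354, 1.07 and 1.69 FPKM in osteoblasts, above 1 FPKM in the *Hbb-bt*-high libraries alone. It missed the filter on mean level.

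*Ctnnb1* was the highest member in every library, at 155, 78.8 and 85.1 FPKM in bone and 141, 85.2 and 93.8 FPKM in osteoblasts. Its level exceeded that of 95.7 to 98.3% of the genes with at least 1 FPKM. On the FPKM scale its libraries overlapped through bone replicate 2, while scaled to named genes or to the 75th percentile the *Hbb-bt*-high libraries were lower without overlap. The *Ctnnb1* feature extends 4184 bp beyond the RefSeq gene and overlaps 3 other RefSeq genes, none of them protein-coding. *Axin1*, the scaffold of the degradation complex, measured 15.0, 6.91 and 17.1 FPKM in bone and 8.98, 14.9 and 14.5 FPKM in osteoblasts. By *Hbb-bt* level *Axin1* overlapped on the FPKM scale and when scaled to named genes. Scaled to the 75th percentile it was higher in each *Hbb-bt*-high library (13.4 to 19.1 against 9.09 to 11.6). *Axin2*, itself a target of the signal, measured 2.74, 0.892 and 2.10 FPKM in bone and 2.15, 2.87 and 1.61 FPKM in osteoblasts. The ratio of *Axin2* to *Axin1* was 0.182, 0.129 and 0.123 in bone and 0.240, 0.193 and 0.111 in osteoblasts, with overlap by label and by *Hbb-bt* level. Its log2 value differed by 0.28 between the labels, with an SD of 0.31 in bone and 0.57 in osteoblasts (exact permutation test, two-sided, p = 0.6, and 0.9 after adjustment over 3 ratios). Without osteoblasts replicate 1 it differed by 0.038, and without osteoblasts replicate 3 by 0.59.

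*Lef1*, the DNA-binding partner of beta-catenin, which lymphocyte precursors also use, measured 0.174, 0.173 and 3.75 FPKM in bone and 0.0937, 2.65 and 4.84 FPKM in osteoblasts. The *Hbb-bt*-low values lie within or below the range that 3 read pairs on 1 kb give. Beside it, 5 of 6 B-lineage markers were higher in each *Hbb-bt*-high library, as were 38.4% of all genes tested. The 6 summed to 117 to 124 FPKM there and to 7.27 to 20.8 FPKM in the others, almost all of it *Ebf1*, while *Cd79a*, *Cd79b*, *Igll1* and *Pax5* were at 0 in all 3 *Hbb-bt*-low libraries. The 6 T-lineage markers summed to 29.3 to 41.0 FPKM and to at most 0.122 FPKM, with *Cd3e*, *Cd3d*, *Cd3g* and *Cd8a* at 0 in the latter. Their part in the level of *Lef1* was not tested.

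Further ratios, chosen after the levels had been seen, describe the split without any scaling and without a test. *Wnt5a* to *Wnt5b* was 1.76 to 2.55 in the *Hbb-bt*-low libraries and 0.173 to 0.219 in the *Hbb-bt*-high ones. *Fzd1* to *Fzd9* was 34.2 to 69.9 and 0.973 to 1.20, so that in the latter the 2 receptors were nearly equal. *Wls* to *Ctnnb1* was 0.320 to 0.568 and 0.108 to 0.124.

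**Figure D4:**
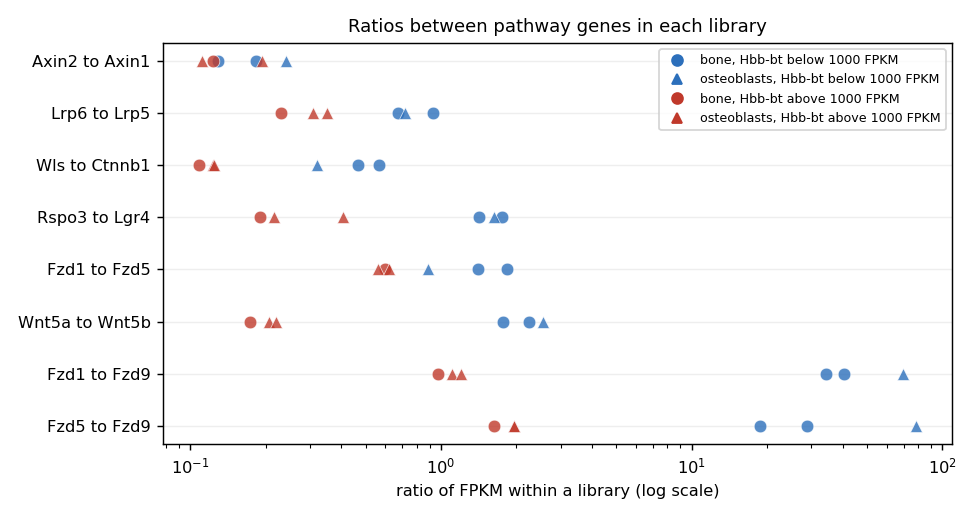
Ratio of FPKM between pairs of members within each library (log scale), 1 point per library, with shape for the label and colour for *Hbb-bt* above (red) or below (blue) 1000 FPKM. *Fzd1* to *Fzd9* spans 0.973 to 69.9, and *Axin2* to *Axin1* only 0.111 to 0.240 with the colours mixed.

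Promoters are shown for 6 members that bone and osteoblasts did not separate and the *Hbb-bt* level did, chosen after the values had been seen. *Fzd1*, *Fzd5* and *Wls* were lower in the *Hbb-bt*-high libraries, and *Fzd9*, *Lef1* and *Wnt16* higher. Each window is the RefSeq sequence of GRCm38.p6 from 250 bases before to 50 after the transcript start, read 5′ to 3′ on the strand of the gene, with CpG dinucleotides in capitals. The windows are *Fzd1* chr5:4758167-4758466 (minus strand), *Fzd5* chr1:64737701-64738000 (minus), *Wls* chr3:159839400-159839699 (plus), *Fzd9* chr5:135250998-135251297 (minus), *Lef1* chr3:131110073-131110372 (plus) and *Wnt16* chr6:22287977-22288276 (plus).
*Fzd1*: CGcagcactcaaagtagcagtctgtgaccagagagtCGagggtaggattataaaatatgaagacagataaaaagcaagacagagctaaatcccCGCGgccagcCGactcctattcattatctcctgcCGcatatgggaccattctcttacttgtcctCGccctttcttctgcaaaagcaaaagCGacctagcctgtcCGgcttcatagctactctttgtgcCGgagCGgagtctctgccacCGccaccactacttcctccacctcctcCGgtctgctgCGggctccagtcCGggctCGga
*Fzd5*: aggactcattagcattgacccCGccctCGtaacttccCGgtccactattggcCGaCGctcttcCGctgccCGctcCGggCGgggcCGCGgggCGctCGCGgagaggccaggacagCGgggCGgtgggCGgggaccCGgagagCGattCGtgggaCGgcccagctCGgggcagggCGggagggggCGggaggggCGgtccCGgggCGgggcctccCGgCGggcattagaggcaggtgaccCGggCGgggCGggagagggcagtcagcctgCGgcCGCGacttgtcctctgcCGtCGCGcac
*Wls*: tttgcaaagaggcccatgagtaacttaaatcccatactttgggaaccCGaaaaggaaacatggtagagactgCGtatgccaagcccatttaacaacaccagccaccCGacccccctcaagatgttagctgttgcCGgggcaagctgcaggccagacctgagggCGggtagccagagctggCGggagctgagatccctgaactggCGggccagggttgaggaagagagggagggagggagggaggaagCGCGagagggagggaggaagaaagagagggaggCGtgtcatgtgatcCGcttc
*Fzd9*: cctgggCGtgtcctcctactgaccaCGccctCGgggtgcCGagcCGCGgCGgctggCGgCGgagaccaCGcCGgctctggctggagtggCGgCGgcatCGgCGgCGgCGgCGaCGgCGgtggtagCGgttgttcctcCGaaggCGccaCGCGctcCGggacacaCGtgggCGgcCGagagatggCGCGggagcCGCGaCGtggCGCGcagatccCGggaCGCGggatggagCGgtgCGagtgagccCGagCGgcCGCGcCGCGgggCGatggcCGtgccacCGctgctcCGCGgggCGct
*Lef1*: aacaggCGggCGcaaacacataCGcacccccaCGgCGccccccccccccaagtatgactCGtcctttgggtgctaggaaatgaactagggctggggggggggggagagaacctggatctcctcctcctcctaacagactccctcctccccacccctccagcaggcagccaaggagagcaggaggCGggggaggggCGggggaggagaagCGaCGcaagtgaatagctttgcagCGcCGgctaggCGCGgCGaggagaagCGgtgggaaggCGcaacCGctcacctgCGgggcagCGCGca
*Wnt16*: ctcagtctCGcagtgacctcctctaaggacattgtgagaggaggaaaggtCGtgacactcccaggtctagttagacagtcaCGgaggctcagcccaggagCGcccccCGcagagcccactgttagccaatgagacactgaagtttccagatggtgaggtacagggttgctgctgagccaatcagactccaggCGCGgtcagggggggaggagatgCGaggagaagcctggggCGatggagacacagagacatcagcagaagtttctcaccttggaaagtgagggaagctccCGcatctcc

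CpG counts did not sort these promoters by their order of libraries. *Fzd1*, *Fzd5* and *Wls* hold 16, 38 and 11 CpG, and *Fzd9*, *Lef1* and *Wnt16* hold 53, 21 and 10. RefSeq windows were found for 27 of the 42 members. Where a member had several, only the window nearest the start of its deposited feature was used. The background windows were not cut down in this way, so the sets are unlike. The median of the 27 was 31 CpG, beside 7 over all 32544 windows of that length, which include noncoding genes. The core CTTTGAT bound by LEF1 and TCF7, searched on both strands (ATCAAAG on the other), was in 1 of the 27 member windows (3.70%) and in 3.73% of all windows. That window is the promoter of *Wnt11* at chr7:98834862-98835161 (plus strand), with the match in capitals.
*Wnt11*: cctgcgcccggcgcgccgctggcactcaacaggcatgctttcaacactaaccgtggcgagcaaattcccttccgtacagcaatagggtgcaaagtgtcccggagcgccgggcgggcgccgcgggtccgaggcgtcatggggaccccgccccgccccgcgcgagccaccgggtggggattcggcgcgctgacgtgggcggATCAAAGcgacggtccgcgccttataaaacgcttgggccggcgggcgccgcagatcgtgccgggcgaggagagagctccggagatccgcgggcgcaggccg

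The RUNX core TGTGGT, searched on both strands (ACCACA on the other), was in 0 of the 27 member windows and in 16.7% of all windows. Member windows are richer in CpG than all windows (medians of 31 and 7). For neither motif was the background matched for base composition, so the shares cannot be read as a gain or loss of sites. These are matches of letters in a short window, and they say nothing of binding.

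Unnamed features in the deposited tables lie where RefSeq, on the same build, places the 6 names without a feature of their own. The feature at *Rspo2*, an R-spondin, covers 99.6% of the gene and no other RefSeq gene (Chr. 15, 43020687 to 43170988). It measured 21.7, 9.53 and 0.195 FPKM in bone and 13.9, 0.404 and 0.496 FPKM in osteoblasts, the same order of libraries as *Rspo3* and a higher level in each *Hbb-bt*-low library. The feature at *Fzd7* covers 99.8% of the gene (Chr. 1, 59482155 to 59486955) and measured 11.1, 4.52 and 3.59 FPKM in bone and 6.25, 2.94 and 2.84 FPKM in osteoblasts. Counted with the 9 named receptors, it would take 10.7 to 12.7% of the Frizzled FPKM in the *Hbb-bt*-low libraries and 17.9 to 20.7% in the *Hbb-bt*-high ones. The feature at *Wnt10b*, a ligand known to promote bone formation, measured 0.784 to 2.23 FPKM, with bone replicate 3 and osteoblasts replicate 2 the highest. That at *Tcf7* measured 1.29, 0.328 and 2.68 FPKM in bone and 1.21, 1.99 and 4.27 FPKM in osteoblasts, highest in the 3 libraries with the most *Lef1*. The features at *Lrp4* (14.0 to 40.6 FPKM) and *Lgr6* (1.26 to 3.79 FPKM) also span other RefSeq genes, so their levels cannot be given to those names. None of these 6 features entered the tests.

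Other genes of the pathway were followed in 4 lists. limma called 0 of 17 cytoplasmic and nuclear partners, 0 of 10 noncanonical receptors and partners, 0 of 10 feedback and target genes and 0 of 7 secreted inhibitors between the labels, with 0 at an unadjusted p under 0.05. By *Hbb-bt* level, the cytoplasmic partners mostly overlapped. *Csnk1a1*, a kinase of the degradation complex, measured 20.8 to 40.1 FPKM, and *Dvl1*, which relays the receptor signal, 13.9 to 22.3 FPKM, both with overlap. Of these 17, 2 were higher (*Pygo2* at 25.4 to 27.2 against 8.23 to 19.2 FPKM, and *Btrc*) and 1 (*Apc*) lower in every *Hbb-bt*-high library, beside 38.4% and 16.9% of all genes tested. When scaled to the sum of named genes 13 of the 17 were lower, beside 48.6% of all genes.

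Feedback and target genes were lower or overlapped. Of the 10 tested, 6 were lower in each *Hbb-bt*-high library and 0 higher, with FPKM and with the 75th percentile, and 8 and 0 when scaled to named genes. Over all genes tested the shares lower and higher were 16.9% and 38.4% with FPKM, 20.4% and 47.0% with the 75th percentile, and 48.6% and 21.4% when scaled to named genes, so the last count lies nearest to its background. *Ccnd1*, cyclin D1, measured 293, 166 and 5.50 FPKM in bone and 150, 6.33 and 5.17 FPKM in osteoblasts, the widest gap of the list. *Wisp1*, a matricellular target, measured 26.8, 18.6 and 7.05 FPKM in bone and 28.5, 7.70 and 6.61 FPKM in osteoblasts. *Nkd1*, *Nkd2* and *Apcdd1*, inhibitors of the pathway named here after their values had been seen, were among the 6. *Nkd2* measured 15.6 to 46.5 FPKM in the *Hbb-bt*-low libraries and 2.12 to 3.70 FPKM in the others, and *Apcdd1* 21.2 to 27.7 FPKM and 1.495 to 2.94 FPKM. *Cd44*, at 43.5 to 79.5 FPKM, overlapped on the FPKM scale.

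Of the 7 secreted inhibitors tested, 3 were higher and 2 lower in each *Hbb-bt*-high library, beside 38.4% and 16.9% of all genes tested. Scaled to named genes the counts were 2 and 3, beside 21.4% and 48.6%. With the 75th percentile they were 4 and 2, beside 47.0% and 20.4%. These counts were not tested against the shares. *Sfrp1*, which sequesters Wnt ligands, measured 37.5, 13.6 and 0.413 FPKM in bone and 18.0, 0.616 and 0.681 FPKM in osteoblasts, with the *Hbb-bt*-low libraries all above 13 FPKM. *Sost* had the reverse order, and its label order was mixed too, with 0.176, 0.0661 and 18.8 FPKM in bone and 0.198, 22.7 and 15.8 FPKM in osteoblasts. The other osteocyte markers did not share its order. *Dmp1* was lower where *Hbb-bt* was high (22.5 to 24.2 against 50.0 to 127 FPKM), and *Phex*, *Fgf23* and *Pdpn* overlapped. With *Sost* the 5 markers summed to 48.2 to 53.5 FPKM there and to 57.1 to 135 FPKM in the *Hbb-bt*-low libraries. *Wif1*, which binds Wnt ligands, overlapped at 4.55 to 12.4 FPKM but not when scaled to the 75th percentile. *Dkk1*, an LRP5 and LRP6 blocker named after its values had been seen, had the order of *Sost*, at 4.46 to 6.002 FPKM against 0.0285 to 0.276 FPKM. Among the noncanonical genes the receptors *Ptk7* (28.8 to 61.8 FPKM in the *Hbb-bt*-low libraries, 5.64 to 8.23 FPKM in the others) and *Ryk* (13.3 to 28.6 and 9.44 to 10.2 FPKM) were lower where *Hbb-bt* was high. *Ror2* was lower too, which made 3 of the 10 tested. The count held with the 75th percentile, beside 16.9% of all genes tested with FPKM and 20.4% with the 75th percentile. Scaled to named genes 4 were lower, beside 48.6%. *Vangl1*, a planar polarity protein, was higher where *Hbb-bt* was high (9.07 to 11.4 against 1.04 to 2.55 FPKM). So were 5 others of the 10 under all 3 scalings. Of all genes tested, 38.4%, 47.0% and 21.4% were higher with FPKM, the 75th percentile and the sum of named genes.

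**Figure D5:**
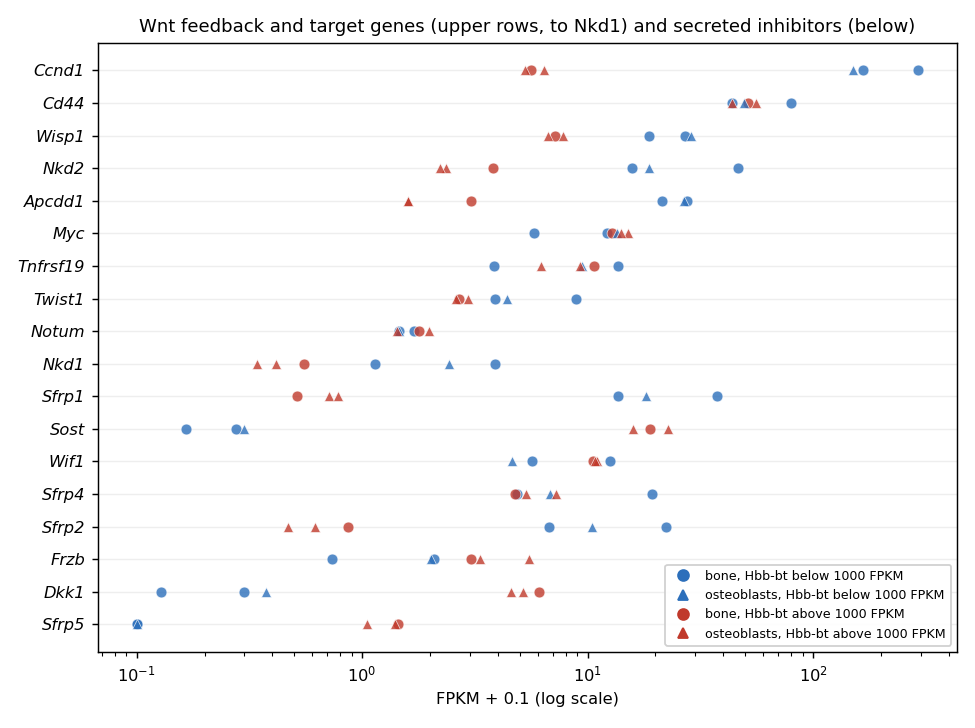
FPKM + 0.1 (log scale) of feedback and target genes (upper rows, to *Nkd1*) and secreted inhibitors (lower rows) with at least 1 FPKM in some library, with symbols as in the plot of members. *Ccnd1* lies at 150 to 293 FPKM in the 3 libraries with *Hbb-bt* below 1000 FPKM and at 5.17 to 6.33 FPKM in the others, and *Sost* and *Dkk1* lie the other way.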

How the data were processed

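Libraries from CC016/GeniUnc bone and osteoblasts were made by the authors with a TruSeq RNA kit and read as 75 bp pairs. Reads were aligned to GRCm38 with HISAT2 2.0.5, SAMtools 1.7 is also listed in the submitters' processing notes, and expression was estimated with StringTie 1.3.3. The authors deposited FPKM per feature, scaled to all aligned reads. The TPM values deposited beside them are the same estimates rescaled within a library. The deposited coverage signal is the mean read depth per base and was used only to read depth. The tables used here give no counts, so no interval for a single value is given. The members and lists were chosen with earlier results of these data known.

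Groups came from the labels. Rows with one name were summed, genes with a mean of at least 1 FPKM were tested on log2(FPKM + 1) with limma 3.58.1 in R 4.3.3 (with a trend, two-sided, Benjamini-Hochberg over all genes, threshold 0.05), after a check on simulated data. Such differences understate those of low genes. Ratios within a library were compared with exact permutation tests. *Lef1* to *Tcf7* was planned too but *Tcf7* has no named feature. Values are given for every member with 1 FPKM in some library, tests for the leading member of each role, and values for the 3 highest genes of each pathway list and selected markers. Floors cover counting error only, and whether StringTie used strand is not given in the sources used here. Alternatives were pseudocount, filter, TPM, 2 scalings, no trend, the replicate number as a block, the *Hbb-bt* level as a second term and leaving out each library. Leaving out the 2 libraries with most unnamed FPKM, and adding the feature at *Fzd7* to the Frizzled sum, were chosen after seeing the data. Python 3.11.15, pandas 2.3.3, numpy 2.4.6, scipy 1.17.1 and matplotlib 3.10.9 were used. The NCBIM37 genome, of another build, was not used here. One marker gene of the B-lineage list is not reported here and was left out of its count and sum.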

Additional observations from a re-analysis of the deposited data

How the results depend on the processing

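The count of 0 members called between the labels held under every alternative run, and the lowest member adjusted p (limma) ranged from 0.0953 to 1. Counts over all genes moved. A replicate block (the number in the label) gave 46 genes higher and 3 lower by limma, and with the *Hbb-bt* level as a second term 8 higher and 8 lower. Leaving out one library at a time gave 0 to 262 higher and 0 to 38 lower. The most came without osteoblasts replicate 1, where the osteoblasts libraries left were all *Hbb-bt*-high. Same-numbered libraries had correlated deviations of 0.84, -0.75 and 0.83, and bone replicates 2 and 3 correlated best with other numbers. For bone replicate 3 the choice was between 0.831 and 0.830. The correlations followed the *Hbb-bt* level, at 0.80 to 0.84 between bone and osteoblasts libraries alike in it and -0.91 to -0.72 between those unlike. A shared mouse behind a shared number can therefore be neither read from them nor excluded. The block left the ratio differences as they were (exact sign-flip p = 0.5 for *Fzd1*, where 0.25 is the smallest possible).

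Differences smaller than their standard errors changed sign. Under TPM *Lgr4*, *Ctnnb1* and *Znrf3* came to -0.035, -0.034 and -0.045. Under 75th percentile scaling the same genes came to -0.0029, -0.056 and -0.039. Scaled to named genes, which moved the median of all genes from 0.12 to -0.03, they came to -0.079, -0.15 and -0.049, and *Lrp5* to -0.012. With the *Hbb-bt* term *Rspo3* came to 0.23, *Lef1* to -0.071 and *Znrf3* to -0.049. Without the 2 libraries of most unnamed FPKM *Lgr4*, *Ctnnb1*, *Lrp5* and *Znrf3* came to -0.22, -0.36, -0.14 and -0.21. Without one library at a time the ranges were -0.15 to 0.37 for *Lgr4*, -0.18 to 0.34 for *Ctnnb1*, -0.18 to 0.15 for *Znrf3*, -0.25 to 0.43 for *Lrp5*, -1.06 to 0.29 for *Rspo3*, -0.31 to 0.34 for *Wnt5b* and -0.89 to 0.12 for the log2 ratio of *Lrp6* to *Lrp5*. *Fzd1* and *Wls* kept their sign under each alternative, but shrank to -0.25 and -0.046 with the *Hbb-bt* term. Without one library *Fzd1* ran from -2.22 to -0.46, *Wls* from -1.62 to -0.20, *Lef1* from 0.096 to 1.305, and the log2 ratios of *Fzd1* to all Frizzled genes from -1.18 to -0.39 and of *Axin2* to *Axin1* from 0.038 to 0.59. The cause of these changes was not tested. Levels below about 0.2 FPKM rest on few read pairs.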
